A study of Homo sapiens with 4 samples.

Results

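The 9 genes described here encode the core of the MHC class I antigen presentation pathway: the heavy chains HLA-B, HLA-C and HLA-E, the light chain B2M, the peptide transporter subunits TAP1 and TAP2, the loading chaperone TAPBP (tapasin), and the immunoproteasome subunits PSMB8 and PSMB9. They were taken by gene name from a deposited table of read counts for 58735 genes, and all 9 were found once on a main chromosome and had enough reads to be tested. The libraries came from Hey-A8, an established human ovarian cancer cell line. There were 2 groups of 2 libraries, with shCON carrying a control hairpin and shSPTLC2 carrying a hairpin labelled as a knockdown of SPTLC2, a catalytic subunit of serine palmitoyltransferase. All 4 libraries share the line and its culture medium, and the labels do not say how many hairpins or clones were used or whether replicates are separate cultures, so that p-values measure only the spread between these libraries. The labels conflict, since a stable knockdown of SPTLC2 is named in titles, genotypes and the design text, whereas ZDHHC15 hairpin plasmids, transient transfection and harvest at 36 h stand in the treatment protocol. Groups follow the titles.

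Nearly all nucleated cells display class I molecules. The proteasome cuts cytosolic proteins into peptides, the TAP1-TAP2 pump carries them into the endoplasmic reticulum, and tapasin holds an empty heavy chain with B2M at the pump until a fitting peptide binds. Interferons and NF-kB raise transcription of these genes, with NLRC5, IRF1 and RFX factors acting at their promoters. PSMB8 and PSMB9 replace the constitutive catalytic subunits PSMB5 and PSMB6 in the immunoproteasome, which tumour cells often express at a low level.

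Total counts per library were 14464784 to 15084966. SPTLC2 had 58.7 and 60.7 CPM (counts scaled to a common library size) in the shCON libraries and 39.9 and 43.1 in the shSPTLC2 libraries. This is a log2 fold change of -0.52 ± 0.12 (SE; adjusted p = 0.0063 in the quasi-likelihood test of edgeR, adjusted by Benjamini-Hochberg over all 15313 tested genes). Leaving out shSPTLC2 replicate 1 (adjusted p = 0.134) or replicate 2 (0.052) ended that call. ZDHHC15 had 0 counts in every library, and 3 counts, the limit that 0 allows, equal 0.195 to 0.206 CPM. Of 13 ovarian carcinoma and mesenchymal markers, KRT7, KRT8, KRT18, VIM and PAX8 had 4047 to 74955 counts per library. CDH1 had 0, MUC16 at most 1, EPCAM at most 10, KRT19 18 to 23 and WT1 99 to 154. Of the 10 tested, PAX8 (0.73 ± 0.11) and MSLN (0.61 ± 0.16) rose, against 10.4% of all tested genes called higher. The MSLN call was lost without shSPTLC2 replicate 1 (adjusted p = 0.125) or replicate 2 (0.128), in DESeq2 and with the GC correction. Of 14 immune cell markers, 4 were at 0 in every library, the common leukocyte gene PTPRC had 0, 0, 2 and 1 counts, and their summed level was 2.24 to 3.57 CPM, against 1184 to 1251 CPM for the 9 class I genes.

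The upstream sequences of the members were searched for fixed letters of interferon, NF-kB and other elements known for this pathway, which leaves out variants of those elements. RefSeq promoters on GRCh38.p14 were matched by symbol for 8 members (not HLA-E). The 250 bases before the transcription start are printed 5′ to 3′ for a pair of heavy chains, the light chain, the pump subunit TAP1 and tapasin, the member that changed; capitals mark matches on either strand to the motifs searched.
HLA-B, chr6:31357180-31357429, minus strand: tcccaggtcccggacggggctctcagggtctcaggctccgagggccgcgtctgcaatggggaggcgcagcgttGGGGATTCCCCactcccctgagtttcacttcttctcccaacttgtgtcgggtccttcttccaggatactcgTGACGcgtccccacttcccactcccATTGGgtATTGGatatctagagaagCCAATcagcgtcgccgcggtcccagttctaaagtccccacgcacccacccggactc
HLA-C, chr6:31272093-31272342, minus strand: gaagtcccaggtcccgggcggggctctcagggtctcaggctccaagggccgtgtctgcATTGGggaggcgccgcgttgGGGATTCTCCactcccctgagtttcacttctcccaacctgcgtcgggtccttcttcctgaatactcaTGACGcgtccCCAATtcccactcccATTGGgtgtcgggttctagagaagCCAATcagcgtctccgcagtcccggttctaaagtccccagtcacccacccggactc
B2M, chr15:44711267-44711516, plus strand: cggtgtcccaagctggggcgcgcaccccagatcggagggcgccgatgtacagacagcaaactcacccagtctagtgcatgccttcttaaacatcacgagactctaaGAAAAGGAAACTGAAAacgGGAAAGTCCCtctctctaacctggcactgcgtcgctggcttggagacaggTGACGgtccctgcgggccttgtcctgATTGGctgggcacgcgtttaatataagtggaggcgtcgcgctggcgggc
TAP1, chr6:32853705-32853954, minus strand: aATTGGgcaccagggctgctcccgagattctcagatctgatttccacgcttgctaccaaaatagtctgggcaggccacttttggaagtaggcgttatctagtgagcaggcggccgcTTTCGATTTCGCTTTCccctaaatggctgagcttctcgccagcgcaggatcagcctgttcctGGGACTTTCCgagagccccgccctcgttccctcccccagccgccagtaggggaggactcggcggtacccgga
TAPBP, chr6:33314079-33314328, minus strand: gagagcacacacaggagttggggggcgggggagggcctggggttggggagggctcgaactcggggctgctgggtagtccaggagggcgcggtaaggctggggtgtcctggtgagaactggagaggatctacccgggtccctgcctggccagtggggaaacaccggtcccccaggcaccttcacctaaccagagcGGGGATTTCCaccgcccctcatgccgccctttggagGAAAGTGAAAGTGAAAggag

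The motifs were an interferon response core (GAAA, any 2 bases, GAAA), the CCAAT box (CCAAT), a cyclic AMP response core (TGACG), a STAT palindrome (TTCNNNGAA) and the NF-kB consensus, each read on both strands with overlaps allowed. The interferon core stood in 4 of the 8 windows (B2M, TAP1, TAP2 and TAPBP), against 3.02% of 35116 promoter windows of the same length. In TAPBP, 2 overlapping copies lay 5 to 20 bases before the start, just downstream of an NF-kB match at 47 to 56 bases. In B2M the overlapping copies lay 129 to 144 bases before the start, and in TAP1 they lay 119 to 134 bases before it on the other strand.
The NF-kB consensus matched in 5 windows (HLA-B, HLA-C, B2M, TAP1 and TAPBP), against 9.96% of all windows. HLA-B and HLA-C each had it about 170 bases upstream, followed by the cyclic AMP core and by CCAAT boxes. That is the order known for class I heavy chain promoters. HLA-C had a further CCAAT match 188 to 192 bases before the start, upstream of its NF-kB match. CCAAT boxes matched in 5 of 8 member windows (32.0% of all), the cyclic AMP core in 6 (21.2%) and the STAT palindrome in 0 (6.57%). The windows of PSMB8 and PSMB9 held neither the interferon core nor the NF-kB consensus. By their RefSeq starts, TAP1 and PSMB9 are transcribed away from each other from starts 488 bases apart. The interferon cores of TAP1 (119 to 134 bases before its start) and its NF-kB match (63 to 72 bases) lie between these starts. They are also upstream of the RefSeq start of PSMB9, but farther from it than the PSMB9 window reaches. The deposited table differs here: its PSMB9 runs from 32844136 to 32859585 and spans the whole of TAP1 (32845209 to 32853978). All motif matches describe letters in a window and were not tied to binding.

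Of the 9 members, 1 changed: TAPBP rose about 1.44-fold in shSPTLC2, and 8 were not called in either direction. Across all tested genes, 19.4% were called, 10.4% higher and 9.00% lower, so 1 higher call among 9 (11.1%) is near the background. The split over all genes was 1593 higher and 1378 lower, or 1927 and 1032 when scaled by library totals. DESeq2 also called TAPBP alone, and 2 members, TAPBP and HLA-E, had an unadjusted p under 0.05 in edgeR (33.2% of all tested genes did). The median log2 fold change was 0.11 over the members and 0.0049 over all tested genes, and the median size was 0.24 against 0.27. For 4 members all shSPTLC2 values lay on one side of all shCON values, with TAP2 and TAPBP higher and HLA-E and B2M lower in shSPTLC2, against 61.5% of all tested genes. In bulk RNA, fewer cells with a transcript and less of it per cell cannot be told apart.

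**Figure D1:**
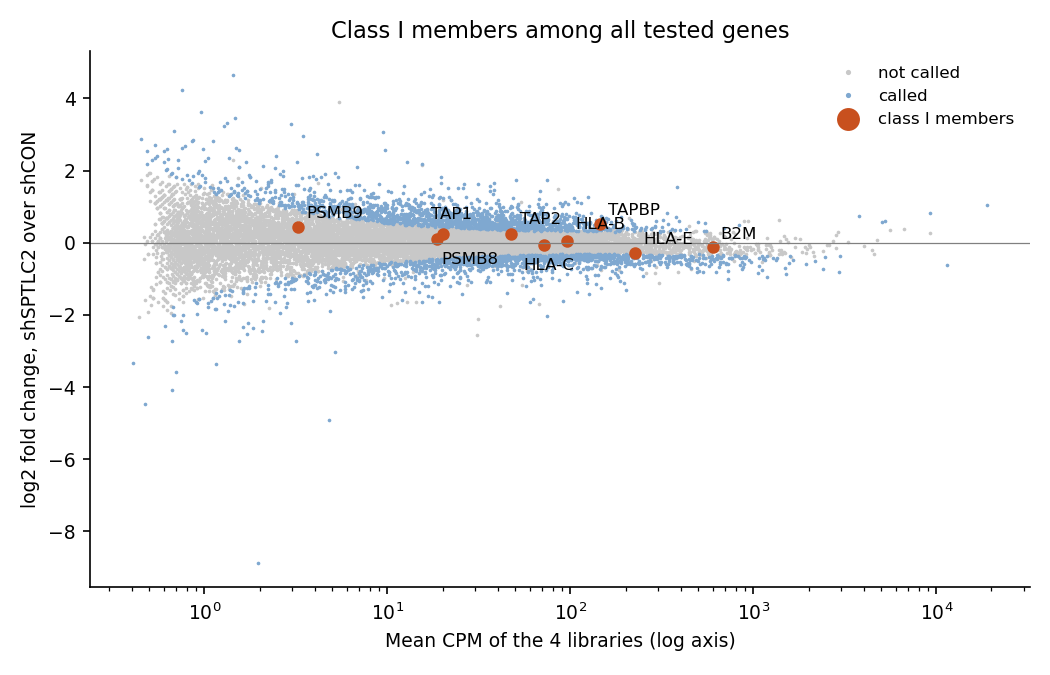
Log2 fold change, shSPTLC2 over shCON, against mean CPM (log axis) for 15313 tested genes, with the 9 members in orange and called genes in blue. TAPBP is the only member among the called genes.

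Ranked per gene length by the deposited FPKM (fragments per kilobase of gene, scaled for depth), B2M was the most abundant member and PSMB9 the scarcest. Mean FPKM over the 4 libraries was 97.7 for B2M, 75.5 for HLA-E, 31.0 for HLA-B, 28.4 for TAPBP, 28.3 for HLA-C, 7.39 for TAP2, 6.18 for PSMB8, 4.17 for TAP1 and 1.05 for PSMB9. The ranges of the libraries overlapped between HLA-B and TAPBP, between TAPBP and HLA-C and between TAP2 and PSMB8, so these neighbours in the order are not separated. In shCON, B2M lay above 97.5% of tested genes and HLA-E above 96.9%. TAP2 lay above 63.0%, PSMB8 above 59.6%, TAP1 above 49.1% and PSMB9 above 20.98%. On this scale, the chains that form the surface complex were thus far more abundant than the pump and the immunoproteasome subunits. The order rests on the gene lengths of the deposited table. It makes no allowance for HLA alleles that differ from the reference.

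**Figure D2:**
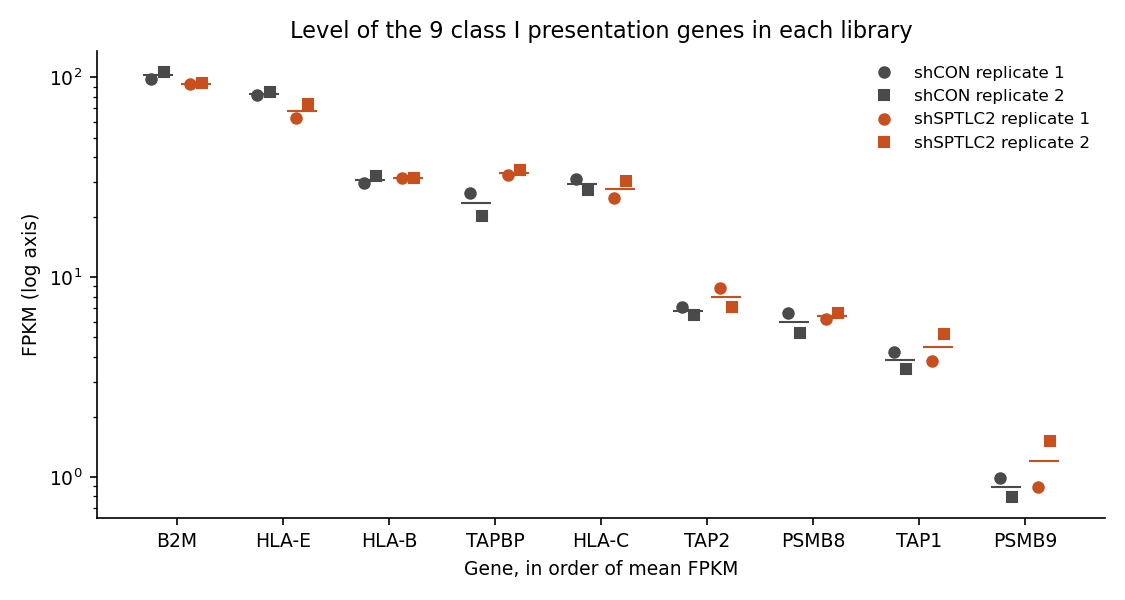
FPKM (log axis) of each member in shCON (grey) and shSPTLC2 (orange) replicates 1 (circles) and 2 (squares), with group means as bars. B2M and HLA-E lie highest, and PSMB9 lies near 1 in every library.

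Among the chains, HLA-B was the steadiest. HLA-B, a classical heavy chain that presents peptides to CD8 T cells, had 90.3 and 98.2 CPM in the shCON pair and 96.3 and 96.6 CPM in the shSPTLC2 pair (replicate 1 first, here and below). The groups overlapped, at a log2 fold change of 0.034 ± 0.11 (SE; adjusted p = 0.85, edgeR), with a 95% interval for the fold of 0.874 to 1.20. HLA-C, which presents peptides and also engages KIR receptors of NK cells, had 77.8 and 69.0 CPM in shCON and 63.0 and 76.2 CPM in shSPTLC2. The groups overlapped here too, with the lowest and second highest values both in shSPTLC2; the log2 fold change was -0.076 ± 0.12 (adjusted p = 0.71, edgeR; fold 0.791 to 1.14).

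HLA-E and B2M lay lower in shSPTLC2 without passing the test. HLA-E, a nonclassical chain that binds signal peptides of other class I chains and is read by the NKG2A receptor, had 243.4 and 252.0 CPM in shCON and 188.7 and 220.2 CPM in shSPTLC2. Both shSPTLC2 libraries were below both shCON libraries, at a log2 fold change of -0.28 ± 0.11 (SE; adjusted p = 0.087, edgeR; 95% interval of the fold 0.703 to 0.969). Without shCON replicate 1 it was called lower (-0.31, adjusted p = 0.020), and the 12 alternatives gave it adjusted p from 0.020 to 0.57. B2M, the invariant light chain that every class I heavy chain needs to fold, had 596.2 and 651.6 CPM in shCON and 572.1 and 571.1 CPM in shSPTLC2. The log2 difference was -0.13 ± 0.11 (adjusted p = 0.44, edgeR; fold 0.782 to 1.07). The summed FPKM of HLA-B, HLA-C and HLA-E was 1.45 and 1.35 times that of B2M in the shCON libraries. In the shSPTLC2 libraries it was 1.28 and 1.45 times, which overlaps with shCON. These ratios serve to compare libraries only, since FPKM divides B2M by 6079 bases and each heavy chain by 2507 to 3051. In counts, shCON replicate 1 had 8840 for B2M against 3609, 1339 and 1154 for HLA-E, HLA-B and HLA-C.

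TAPBP was the member that changed. Tapasin bridges the empty heavy chain to the TAP pump and edits its peptides. TAPBP had 133.8 and 103.2 CPM in the shCON pair against 166.4 and 174.4 CPM in the shSPTLC2 pair. Both shSPTLC2 libraries stood above both shCON libraries, although the shCON pair differed 1.30-fold between themselves. The group mean was 118.5 ± 21.6 CPM in shCON and 170.4 ± 5.62 CPM in shSPTLC2 (SD, n = 2). On the log2 scale TAPBP rose by 0.52 ± 0.12 (SE; adjusted p = 0.0081, edgeR), with a 95% interval for the fold of 1.20 to 1.72. Another 1150 genes called higher had a larger log2 fold change. Its call was lost when shSPTLC2 replicate 1 (adjusted p = 0.094) or replicate 2 (0.107) was left out and in limma on log2 FPKM (0.054 and 0.055, with pseudocounts of 0.1 and 1), and the direction was higher in all 12 alternatives, from 0.34 to 0.71. The longest annotated TAPBP transcript has 57.6% GC, against a median of 48.0% over the longest transcripts of tested genes. With a GC correction on that measure, chosen after seeing the data, the call stood (adjusted p = 0.023, edgeR).

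The pump subunits had positive fold changes that did not pass the test. TAP1, an ATP-binding subunit of the pump, had 20.2 and 16.8 CPM in shCON and 18.6 and 25.1 CPM in shSPTLC2. The groups overlapped, since the value of shSPTLC2 replicate 1 lay between the shCON pair, at a log2 fold change of 0.24 ± 0.17 (SE; adjusted p = 0.33, edgeR; 95% interval of the fold 0.926 to 1.51). TAP2, its partner subunit, had 45.5 and 41.8 CPM in shCON and 57.3 and 45.7 CPM in shSPTLC2. The groups were apart only narrowly, and its log2 fold change was 0.24 ± 0.13 (adjusted p = 0.23, edgeR; fold 0.970 to 1.43). Per length, TAP1 was 0.589 and 0.535 times as abundant as TAP2 in the shCON libraries and 0.431 and 0.730 times in the shSPTLC2 libraries, so the ratio differed more within shSPTLC2 than between the groups.

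The immunoproteasome subunits were not called, and PSMB9 was scarce. PSMB8 (LMP7), which takes the place of PSMB5, had 19.9 and 15.9 CPM in shCON and 18.6 and 20.1 CPM in shSPTLC2. These overlap, at a log2 fold change of 0.11 ± 0.15 (SE; adjusted p = 0.65, edgeR; 95% interval of the fold 0.862 to 1.35). PSMB9 (LMP2), which takes the place of PSMB6, had 45 and 36 counts in shCON and 41 and 72 counts in shSPTLC2, or 3.03, 2.47, 2.79 and 4.69 CPM. Only shSPTLC2 replicate 2 stood out, and the log2 fold change was 0.44 ± 0.32 (adjusted p = 0.35, edgeR). Its 95% interval, 0.853 to 2.17-fold, is the widest of the 9, and a change of 2-fold was not excluded at this depth. For the other 8 members the interval lay within 2-fold either way, and for 6 of them (HLA-B, HLA-C, HLA-E, B2M, TAP2 and PSMB8) within 1.5-fold. TAP1, PSMB8 and PSMB9 ordered the 4 libraries alike: lowest in shCON replicate 2, then shSPTLC2 replicate 1, shCON replicate 1 and shSPTLC2 replicate 2. PSMB8 and PSMB9 share 139 exon bases on opposite strands and no strand setting is named, so these may not be fully separate readings.

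The constitutive subunits that PSMB8, PSMB9 and PSMB10 (not a member) replace fell. PSMB5, the chymotrypsin-like subunit, had 148.7 and 175.0 CPM in shCON and 121.9 and 126.6 CPM in shSPTLC2 (log2 fold change -0.38 ± 0.11, SE; adjusted p = 0.025, edgeR). PSMB6 changed by -0.33 ± 0.10 (0.038) and PSMB7 by -0.34 ± 0.10 (0.030), so 3 of 3 were called lower, against 9.00% of all tested genes. Leaving out shSPTLC2 replicate 1 ended these calls (adjusted p = 0.244, 0.201 and 0.286), as did leaving out shSPTLC2 replicate 2 (0.149, 0.287 and 0.179), limma, and library totals in place of TMM, with the direction lower throughout. PSMB5 was also not called without shCON replicate 2 (0.077), nor PSMB7 with the GC correction.
On the FPKM scale, PSMB8 over PSMB5 was 0.0788 and 0.0536 in shCON and 0.0900 and 0.0934 in shSPTLC2. PSMB9 over PSMB6 was 0.0112 and 0.00909 against 0.0125 and 0.0223. The size of these ratios depends on the gene lengths, 2997 against 1765 bases and 3072 against 1448 bases. Neither ratio overlapped between the groups, and 61.5% of all tested genes, taken singly, did not overlap either. PSMB8 and PSMB9 themselves overlapped, whereas PSMB5 and PSMB6 lay lower in both shSPTLC2 libraries. With 2 libraries against 2, the exact two-sided permutation test cannot go below p = 0.333, which is the value each ratio had. PSMB10 over PSMB7, the third such pair, overlapped (0.0158 and 0.0209 against 0.0165 and 0.0150).

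**Figure D3:**
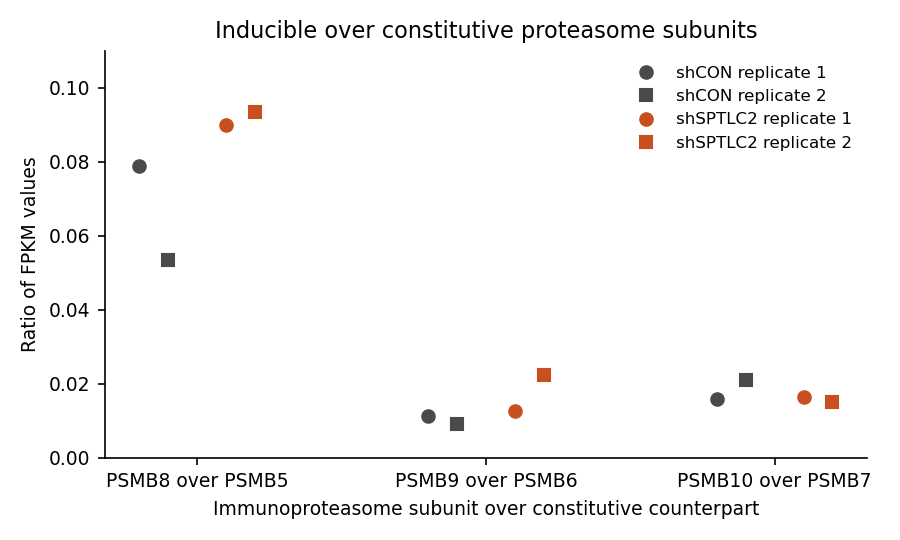
Ratio of FPKM of each inducible proteasome subunit to its constitutive counterpart in the shCON (grey) and shSPTLC2 (orange) libraries. PSMB8 over PSMB5 lies between 0.0536 and 0.0934, and the PSMB9 and PSMB10 ratios reach at most 0.0223.

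The rest of the loading machinery was not called in the edgeR fit of all 4 libraries. Of 17 other peptide supply and loading genes, 0 rose and 0 fell in edgeR, against 19.4% of all tested genes called. The median log2 fold change was -0.089, and 4 had an unadjusted p under 0.05. DESeq2 called 1 lower, as did edgeR with no filter on low counts. Calls also appeared when either shCON library was left out. CANX, the lectin chaperone calnexin, had 849.6 and 869.8 CPM in shCON and 688.2 and 705.7 CPM in shSPTLC2 (-0.30 ± 0.11, SE; adjusted p = 0.059, edgeR). Calreticulin (CALR, -0.21 ± 0.11), the oxidoreductase PDIA3 (-0.22 ± 0.10), the third immunoproteasome subunit PSMB10 (-0.57 ± 0.24) and the cytosolic peptidase TPP2 (0.25 ± 0.11) had adjusted p of 0.192, 0.146, 0.109 and 0.137. Among 7 further class I and class I-like heavy chain genes, 4 were tested and 0 were called by edgeR or DESeq2 (0 at an unadjusted p under 0.05). They include the iron regulator HFE (0.35 ± 0.18), the metabolite presenter MR1 (-0.28 ± 0.17) and the IgG receptor FCGRT (0.40 ± 0.28). HLA-F had 0 and 3 counts in shCON and 1 and 12 in shSPTLC2, HLA-G had 0 in every library and the lipid presenter CD1D at most 5.

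Factors that act on class I promoters went both ways. Of 15 tested, 2 rose, 1 fell and 12 were not called, with a median log2 fold change of 0.0076. Across all tested genes 19.4% were called. CREB1, which binds the cyclic AMP core of the heavy chain promoters, rose from 35.2 and 35.2 to 50.3 and 55.1 CPM (0.58 ± 0.12, SE; adjusted p = 0.0039, edgeR), a call lost without shSPTLC2 replicate 2 (0.079). The interferon factor IRF2 rose by 0.47 ± 0.15 (adjusted p = 0.036), and this call ended in DESeq2, in limma and without either shSPTLC2 library or shCON replicate 2 (0.139, 0.254 and 0.128).
NFKB1 (-0.31 ± 0.11), RFXAP (0.47 ± 0.17) and the abundant RELA (-0.036 ± 0.11) were not called. NLRC5 and IRF1, named for their role after their values were seen, had 9.24 and 12.01 CPM and 16.4 and 13.9 CPM in shCON, against 13.7 and 12.4 CPM and 14.8 and 16.1 CPM in shSPTLC2. The groups stood narrowly apart for NLRC5 and overlapped for IRF1. Their log2 fold changes were 0.30 ± 0.18 (adjusted p = 0.27, edgeR) and 0.025 ± 0.16 (0.93).

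**Figure D4:**
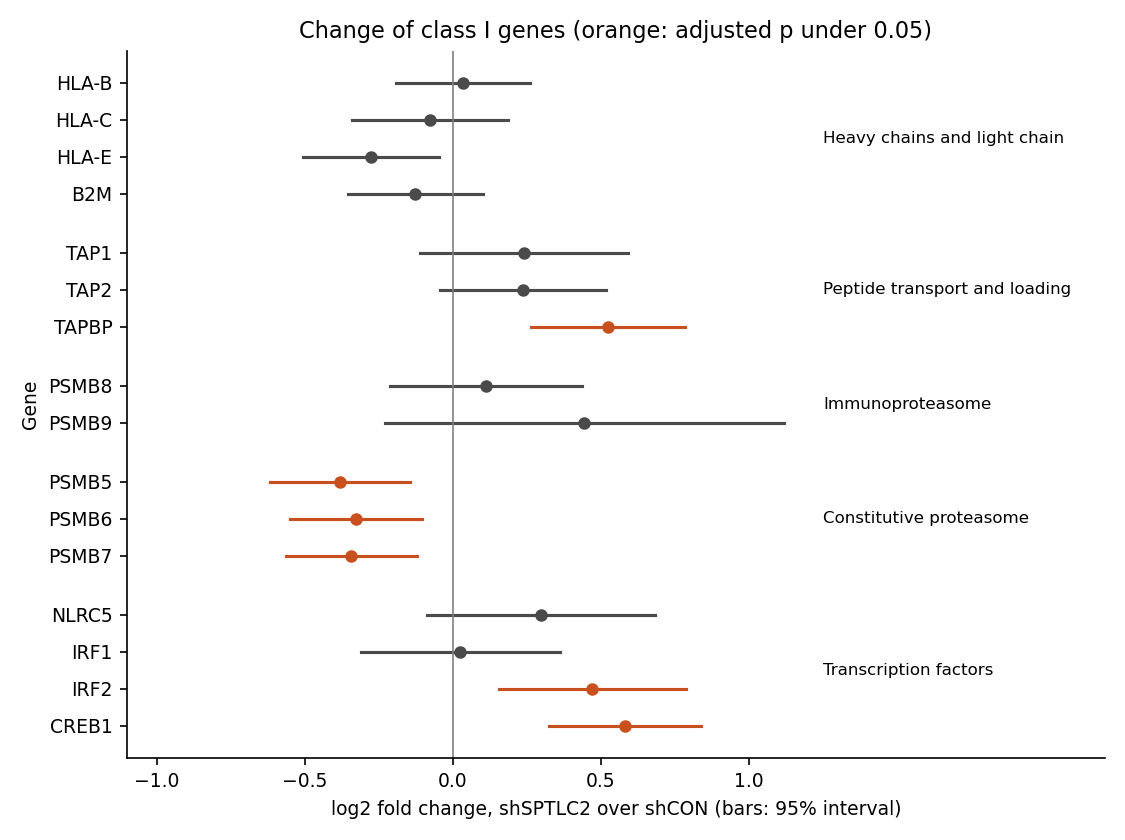
Log2 fold change, shSPTLC2 over shCON, with its 95% interval for the 9 members, the constitutive proteasome subunits and selected promoter factors; orange marks an adjusted p under 0.05 in edgeR. Of the members, TAPBP lies at 0.52 and the other 8 are grey, while PSMB5, PSMB6 and PSMB7 lie between -0.38 and -0.33.

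Interferon transcripts were at or near the floor in both groups. IFNB1 had 3 and 3 counts in shCON and 2 and 5 in shSPTLC2, and IFNG had 0 in every library. Of 26 interferon and JAK-STAT genes, 17 were tested, 3 rose, 3 fell and 11 were not called (median -0.12). The called share of all tested genes was 19.4%. The sensor-pathway factor IRF3 rose from 34.5 and 33.9 to 60.9 and 61.3 CPM (0.84 ± 0.12, SE; adjusted p = 2.8e-04, edgeR) and was called in all 12 alternatives. The kinase gene TYK2 (0.43 ± 0.11) and the feedback inhibitor SOCS1 (0.81 ± 0.21) rose, and SOCS3 (-0.40 ± 0.12) and the phosphatase gene PTPN2 (-0.44 ± 0.13) fell. The calls of TYK2, SOCS1, SOCS3 and PTPN2 ended without either shSPTLC2 library (adjusted p = 0.065 to 0.236), those of SOCS1 and PTPN2 also in DESeq2, those of PTPN2 and TYK2 in limma (TYK2 with a pseudocount of 1 only), those of SOCS3 and PTPN2 without shCON replicate 2 (0.053 and 0.0997) or with library totals, and those of TYK2 and SOCS1 with the GC correction. The kinase gene JAK1, the most abundant of the list, was not called (-0.12 ± 0.11).

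The class II branch was nearly silent. Of 13 class II genes, 8 had 0 counts in every library and 3 were tested, of which 1 fell and 0 rose. Over all tested genes 9.00% were called lower. The one that fell was CTSS, a lysosomal protease that trims the invariant chain, from 31.4 and 33.7 to 13.5 and 17.2 CPM (-1.08 ± 0.15, SE; adjusted p = 2.3e-04, edgeR), called in all 12 alternatives. The class II activator CIITA (0.99 ± 0.46) and HLA-DMA (0.48 ± 0.56) had at most 25 counts per library and were not called.
Of 12 tested ligands that NK and T cells read beside class I, 1 rose and 1 fell. Among all tested genes 19.4% were called. The PD-1 ligand gene CD274 (PD-L1) rose from 23.1 and 23.9 to 29.1 and 38.3 CPM (0.52 ± 0.15, adjusted p = 0.021), a call that ended without shSPTLC2 replicate 2 (0.329), in DESeq2 and in limma. PDCD1LG2 (PD-L2), its neighbour in function, fell from 15.1 and 16.1 to 8.30 and 7.36 CPM (-0.99 ± 0.17, adjusted p = 0.0013) and was called in all 12 alternatives. The NKG2D ligand genes ULBP2 (-0.26 ± 0.14) and ULBP3 (-0.51 ± 0.22), the DNAM-1 ligand gene PVR (-0.12 ± 0.11) and CD47 (-0.097 ± 0.11) were not called.

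Of 10 genes for turnover and surface access of class I molecules, 1 rose, 2 fell and 7 were not called (median log2 fold change 0.038). Of all tested genes 19.4% were called. UBE2J1 (-0.39 ± 0.11, SE; adjusted p = 0.027, edgeR) and SEL1L (-0.33 ± 0.11, adjusted p = 0.044), which serve degradation of misfolded chains in the endoplasmic reticulum, fell. UGCG, which makes glucosylceramide, rose (0.33 ± 0.11, adjusted p = 0.047), and B3GNT5, which extends such lipids, was not called (0.33 ± 0.14, adjusted p = 0.095). None of these 3 calls held without either shSPTLC2 library (adjusted p = 0.118 to 0.420) or in limma. The calls of UBE2J1 and SEL1L also ended with library totals, that of UBE2J1 without shCON replicate 1 (0.064), that of SEL1L in DESeq2, and that of UGCG with RLE size factors and with the replicate block. The ubiquitin ligase gene MARCH4 was not called (-0.13 ± 0.11).

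On the genome, 8 members lie on chromosome 6 in a stretch of 2.82 Mb (hg38, 30489467 to 33314387, from HLA-E to TAPBP), and B2M lies on chromosome 15 (44711487 to 44718877). In that stretch 84 other genes were tested, 10 were higher and 6 lower (19.0% called), close to the 18.5% of all tested genes on chromosome 6. TAP2, PSMB8, TAP1 and PSMB9 sit together (32821833 to 32859585), and around them within 100 kb the one other tested gene was HLA-DMA. The genes beside TAPBP, named after their values were seen, went both ways: RGL2 (0.45 ± 0.11, SE; adjusted p = 0.011, edgeR) and DAXX (0.39 ± 0.11, 0.026) rose and ZBTB22, which lies between TAPBP and DAXX, fell (-0.63 ± 0.17, 0.016). These calls also ended without either shSPTLC2 library (adjusted p = 0.0515 to 0.206), DAXX without shCON replicate 1 (0.070) and ZBTB22 without shCON replicate 2 (0.059), and that of DAXX ended in DESeq2 and limma.

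**Figure D5:**
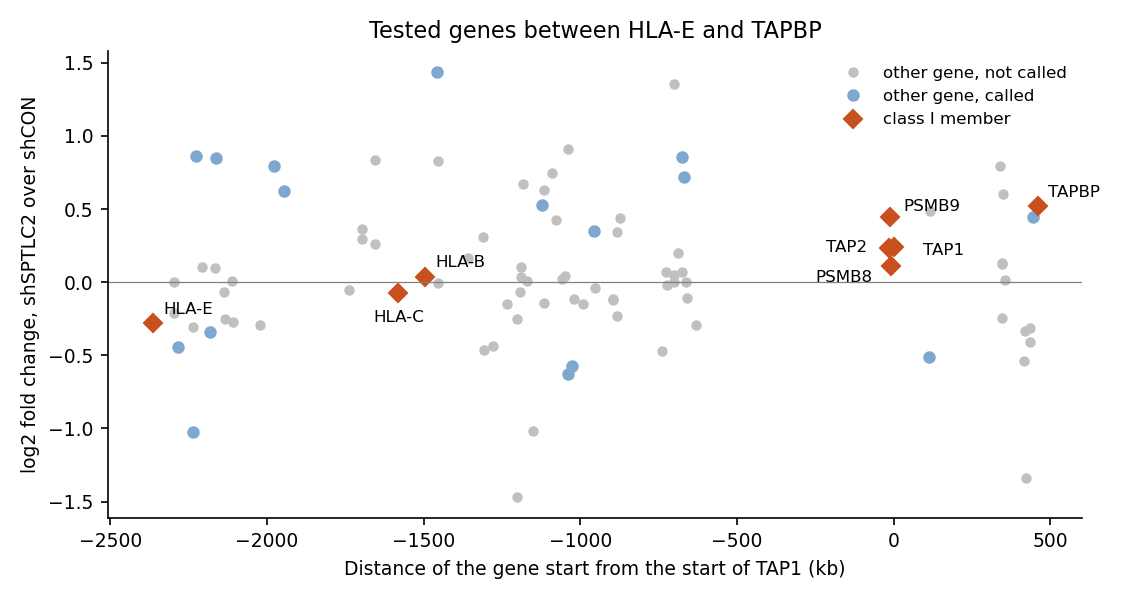
Log2 fold change, shSPTLC2 over shCON, of the tested genes from HLA-E to TAPBP against distance of the gene start from that of TAP1 in kb. Gene starts are those of the deposited table. The 8 members are orange diamonds, and called genes (blue), 10 higher and 6 lower, are scattered over the stretch.

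Some members share exons or sequence with other genes, which bears on how reads could be assigned. In GENCODE 29, whose spans and exon lengths equal those in the table for all 9, TAP2 shares 32.3% of its exon bases with a same-strand readthrough gene that had 0 counts in every library. PSMB8 shares 20.6% and TAP1 9.49% with PSMB8-AS1 on the other strand, which had 1 to 4 counts. PSMB9 shares 5.66% with PSMB8-AS1 on the same strand. PSMB8 and PSMB9 share 139 exon bases on opposite strands. HLA-B shares 17.8% with AL671883.2 on the other strand, which had 0 counts in every library. HLA-B and HLA-C share 35 exon bases, and 2.12% and 6.17% of the 50-base stretches of their coding transcripts occur in transcripts of other genes, as do 5.13% for HLA-E, 5.13% for TAPBP, 1.05% for TAP1, 9.95% for PSMB9 (with PSMB8-AS1 the leading partner) and 32.7% for TAP2. At 100 bases the shares were 0.230% for HLA-C, 0.600% for HLA-E, 4.68% for PSMB9 and 31.9% for TAP2, and 0 for HLA-B, TAPBP and TAP1. Neither the counting program nor a strand setting is named in the labels or headers. The counts of members that share bases or stretches are thus uncertain at least to that extent. These shares compare reference sequences only. How far the HLA alleles of Hey-A8 differ from hg38, and whether reads were lost for that reason, was not examined. B2M shared no exon bases and no 50-base stretch.

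Over the 4 libraries, the 9 members' log2 CPM deviated on average by 0.010 and -0.12 in the shCON pair and by -0.024 and 0.14 in the shSPTLC2 pair. Of the 5 genes nearest to that profile by Euclidean distance (0.0121 to 0.0209), among those tested at 5 CPM or more on average, 4 were TBC1D30, PCCA, ARHGEF7 and SCAF11. These had log2 fold changes of 0.11 to 0.13 and were not called. Fold changes near that of the mean profile follow from how these genes were chosen, so the values are no separate result.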

How the data were processed

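RNA sequencing read counts of 2 shCON and 2 shSPTLC2 libraries of Hey-A8 cells were analysed. The deposited count table holds whole-number read counts per gene, and the deposited FPKM table holds the authors' FPKM values, which equal count over the table's gene length and a factor per library. The submitters' processing notes name HISAT2, SAMtools, StringTie and hg38, with no roles. No counting program is named there.

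An edgeR 4.0.16 fit (R 4.3.3) of all 4 libraries used filterByExpr (minimum count 10, minimum total 15), TMM scaling, a robust quasi-likelihood fit without covariates, a two-sided F test and Benjamini-Hochberg adjustment over all 15313 tested genes, with a call at an adjusted p under 0.05. An SE was obtained by dividing the size of the log2 fold change by the root of F, and 95% intervals use the fit's moderated t quantile, unadjusted. CPM use TMM-adjusted totals of the tested genes. Ratios of FPKM were compared by an exact two-sided permutation test. Alternatives used DESeq2 1.42.0 and limma 3.58.1, RLE factors, library totals, no filter, a replicate block, each library left out, and a GC correction added after seeing the data.

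The members, gene lists and tests were chosen with earlier results of these data known. Genes were named by rule: all members, and in each list up to 4 with the smallest adjusted p, the 2 or fewer of highest mean CPM, and every gene of a list of 7 or fewer. Genes named because few were called, or by position or role, were chosen after their values were seen. Further genes under the rule, counted in their lists, are not reported here. Limits for a count of 0 cover counting error only, and the common biological coefficient of variation was 10.05%.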

Additional observations from a re-analysis of the deposited data

How the results depend on the processing

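Among all tested genes, 2971 were called by edgeR, 1978 by DESeq2, and 1716 and 1719 by limma on log2(FPKM + 1) and log2(FPKM + 0.1). Leaving out each library gave 640 (without shSPTLC2 replicate 1; 994 without shSPTLC2 replicate 2) to 4027 calls, with the lone library of a group assumed to vary like the other pair. With library totals 1927 were higher and 1032 lower, against 1593 and 1378 with TMM. The number of members called higher was 1, and it was 0 in both limma fits; leaving out each library gave 0 to 1 higher and 0 to 1 lower, the lower one being HLA-E without shCON replicate 1. Over the same left-out fits the log2 fold change of SPTLC2 ran from -0.58 (without shSPTLC2 replicate 2) to -0.47 (without shSPTLC2 replicate 1), and its call was lost in both.

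Directions near 0 turned for 3 members. With each library left out, HLA-B ran from -0.034 (without shCON replicate 1) to 0.089, HLA-C from -0.22 to 0.056 (without shSPTLC2 replicate 1; 0.0046 when shCON replicate 1 was left out) and PSMB8 from -0.046 (without shCON replicate 2) to 0.27. With the GC correction HLA-B was -0.068. None of these values was called, and the cause was not tested. HLA-E, B2M, TAP1, TAP2, TAPBP and PSMB9 kept their direction in all 12 alternatives.

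The labels do not say that replicate numbers mark a shared day. Deviations of same-numbered libraries had a correlation of -0.020, and with the replicate block 3307 genes were called, 1 member among them; the block changed no call among the members. With 2 libraries a group, PSMB9, at 36 to 72 counts, is the member that depth limits most.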
